A study of Mus musculus with 12 samples.

Results

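The methionine and transsulfuration enzymes were followed through liver RNA-seq of mice that received zinc, dexamethasone or both. They are 10 genes, *Mat1a*, *Gnmt*, *Ahcy*, *Bhmt*, *Bhmt2*, *Pemt*, *Cbs*, *Cth*, *Cdo1* and *Csad*, chosen by their place in methionine metabolism and in the making and use of cysteine. The rule of choice used no values, but earlier results of these data were known when it was made. All 10 were found among the 54838 genes of the count table, and all 10 were tested in each comparison. The 12 mice were C57BL/6J, with no transgene or mutant allele named in the labels, and formed 4 groups of 3. The control group, water-PBS, drank plain water for 7 days and was injected intraperitoneally with PBS. The zinc-PBS group drank water with 25 mM ZnSO4 for the same time before PBS. The water-Dex and zinc-Dex groups drank plain water or the zinc water and were injected with 200 µg of dexamethasone (Dex), which activates the glucocorticoid receptor. At 2 h after the injection the livers were removed. By the methods of the study, C57BL/6J mice obtained from a supplier were female, and mice were 8 to 14 weeks old when used.

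Methionine is activated to S-adenosylmethionine (SAM), the methyl donor of the cell. Methyl transfer leaves S-adenosylhomocysteine, which is split to homocysteine, and homocysteine is either methylated back to methionine or led through transsulfuration to cysteine. Cysteine is then built into glutathione and protein or oxidized towards taurine and sulfate. The liver carries most of this traffic, with isoforms such as *Mat1a* that mark the adult hepatocyte, and glucocorticoids are long known to act on hepatic amino acid breakdown.

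Libraries held 9091152 to 12303527 counts, and each member had from 1222 to 68071 counts in a library. All levels below are normalized read counts, that is counts divided by DESeq2 size factors, in replicate order within a group, and means as mean ± SD with n = 3 mice. LFC stands for the log2 fold change of the first group over the second in the DESeq2 fit of all 12 libraries, with its standard error (SE). A gene was called where its p, adjusted by Benjamini-Hochberg over all genes tested, was under 0.05. The treatments showed in their known targets. *Tsc22d3*, a glucocorticoid receptor target, lay between 566 and 899 in PBS-injected mice and between 2963 and 4260.5 in Dex-injected mice. The metallothionein gene *Mt1* lay between 209 and 435 in water-PBS and between 3427 and 6212 in zinc-PBS. In Dex-injected mice *Mt1* was higher still, between 7486 and 7595 in water-Dex and between 12367 and 15077 in zinc-Dex. It rose with Dex as well, so it is a check of zinc only between groups with the same injection. Of the 8 hepatocyte markers, 7 were found and none was at 0. Their summed level was 1257870 to 1482700 in water-PBS, 1329280 to 1477370 in zinc-PBS, 1622050 to 1732120 in water-Dex and 1705170 to 1804250 in zinc-Dex, so it was higher in every Dex-injected mouse. The 6 stellate cell markers also summed to more with Dex, 5631 to 6726 against 4943 to 5355, and the 6 lymphocyte markers to less, 166 to 222 against 239.5 to 278. Kupffer cell, bile duct, gut epithelium, sinusoidal endothelial and red blood cell markers overlapped between PBS-injected and Dex-injected mice, and of the 7 pancreatic acinar markers *Cpa1*, *Prss2* and *Pnlip* were at 0 in every library. The part of these shifts in the Dex results was not tested. In whole liver, fewer cells of a type and less RNA per cell cannot be told apart.

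Compared per length, as TPM, a length-scaled share of all transcripts computed on annotated exon length, the members fell into levels that differed widely. In water-PBS the most abundant were *Cdo1* (2985 ± 226 TPM), *Gnmt* (2836 ± 1079.9) and *Mat1a* (2608 ± 442), whose ranges over mice overlapped. *Bhmt* followed at 685 ± 199 TPM, below each of these in every mouse. *Ahcy* (453 ± 81.5 TPM) and *Cth* (441 ± 122 TPM) overlapped with each other and with *Bhmt*. *Pemt* (281 ± 14.2 TPM), *Bhmt2* (212 ± 26.6 TPM) and *Cbs* (175 ± 7.55 TPM) lay lower and were separate in order. *Csad* was lowest at 148 ± 103 TPM and overlapped with *Cbs* and *Bhmt2*. The length used was that of all annotated exons of a gene merged, 7485 bases for *Cbs* and 5758 for *Bhmt*, so this order depends on it. By normalized count in water-PBS, *Cbs* (5434 ± 222) lay above *Pemt* (2454 ± 139) and *Bhmt2* (2174 ± 233). By the same measure *Bhmt* (16320 ± 4420) overlapped with *Gnmt* (14146 ± 5112). By mean TPM over the 12 libraries *Cdo1* ranked 34, *Mat1a* 41 and *Gnmt* 43 among all genes, and *Csad*, the last of the members, ranked 745. Together the 10 genes held 0.899% to 1.33% of all counts in water-PBS, 1.06% to 1.21% in zinc-PBS, 1.11% to 1.26% in water-Dex and 1.21% to 1.57% in zinc-Dex.

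**Figure D1:**
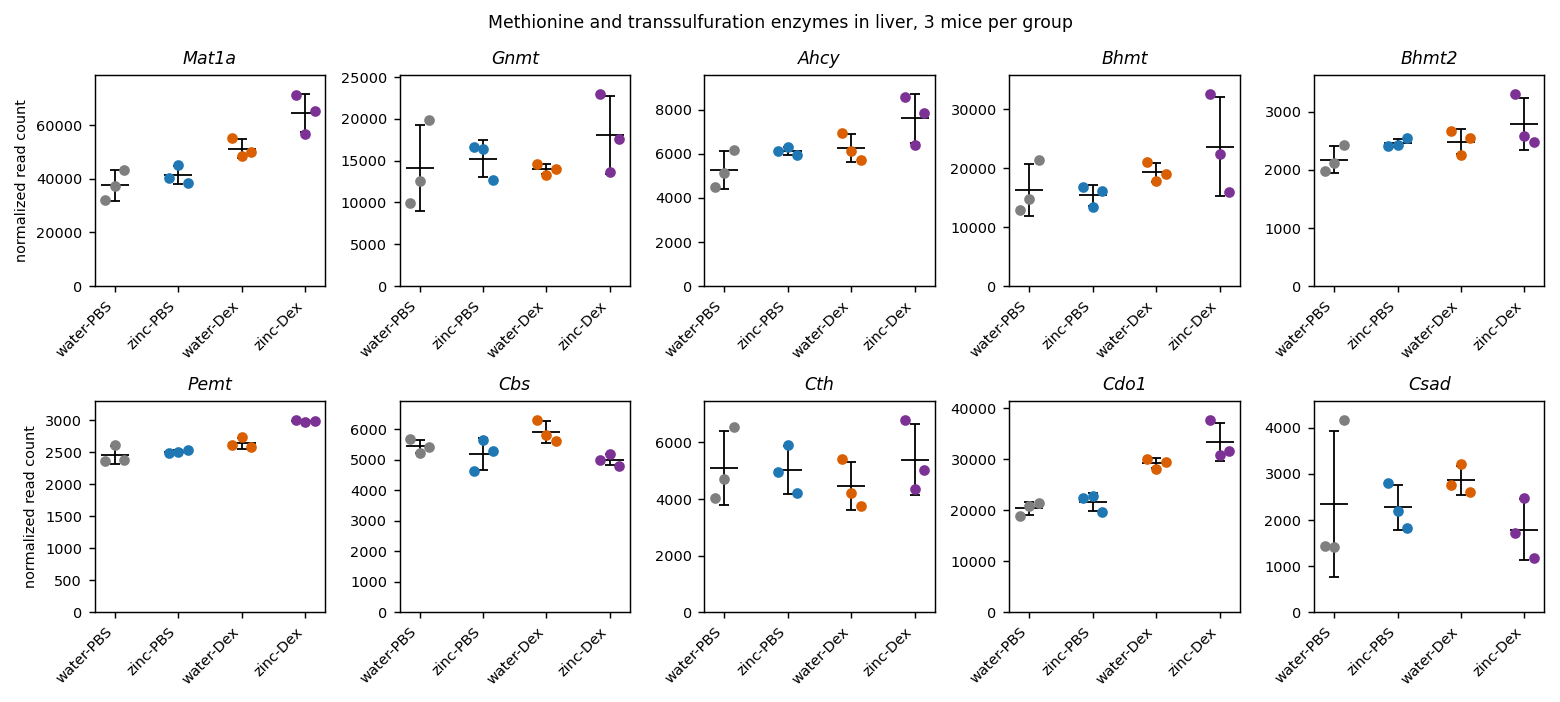
Normalized read count (y axis, from 0) of each enzyme gene in each mouse (points) of the 4 groups (x axis), with the group mean and SD (bar and whiskers, n = 3). *Mat1a* and *Cdo1* are higher in all 6 Dex-injected mice than in all 6 PBS-injected mice, and 1 water-PBS mouse stands at 4168 for *Csad* against 1439 and 1414 in the other two.

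Promoter sequence was taken from RefSeq (GRCm38.p6) for members with an entry, 9 entries for 7 of the 10 genes. *Mat1a*, *Cth* and *Cdo1* had no entry that was used. Of the members called in at least 1 comparison, *Ahcy*, *Pemt* and *Bhmt2* had one and are printed for that reason. In the main fit *Ahcy* and *Bhmt2* were called only with both treatments against the controls. With counts scaled to library totals, none of *Ahcy*, *Pemt* and *Bhmt2* was called. Each is the longest stretch free of annotated exons within the 250 bases before a transcription start, on the minus strand and written 5′ to 3′. *Ahcy* is at chr2:155074498-155074747, *Bhmt2* at chr13:93674303-93674432, and *Pemt* has a start after chr11:60037006-60037255 and another after chr11:60040189-60040438. Capitals mark a metal response element, searched as TGCACNC or TGCGCNC on both strands.
*Ahcy*: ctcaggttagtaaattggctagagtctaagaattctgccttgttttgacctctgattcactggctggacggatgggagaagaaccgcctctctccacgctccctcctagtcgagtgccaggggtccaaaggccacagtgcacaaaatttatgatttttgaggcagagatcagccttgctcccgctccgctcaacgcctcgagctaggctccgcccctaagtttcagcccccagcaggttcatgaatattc
*Bhmt2*: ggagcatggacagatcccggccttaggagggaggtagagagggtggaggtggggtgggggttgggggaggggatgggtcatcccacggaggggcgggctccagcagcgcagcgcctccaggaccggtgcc
*Pemt*, start at 60037005: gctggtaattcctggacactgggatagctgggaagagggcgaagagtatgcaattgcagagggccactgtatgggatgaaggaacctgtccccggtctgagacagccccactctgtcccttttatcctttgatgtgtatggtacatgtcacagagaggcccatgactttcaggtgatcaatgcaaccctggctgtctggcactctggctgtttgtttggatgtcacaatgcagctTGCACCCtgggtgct
*Pemt*, start at 60040188: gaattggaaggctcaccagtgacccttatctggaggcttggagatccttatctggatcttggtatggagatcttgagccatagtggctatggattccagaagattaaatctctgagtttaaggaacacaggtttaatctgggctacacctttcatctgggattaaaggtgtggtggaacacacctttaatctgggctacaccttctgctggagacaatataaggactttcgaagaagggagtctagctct
The first *Pemt* start has this element in the letters TGCACCC, 15 to 9 bases before it, and among the other entries of the members only *Bhmt* has one, 41 to 35 bases before its start and inside an annotated exon. Of all 32851 promoter entries, 21.4% hold it in the same 250 bases. The palindromic glucocorticoid response element, searched on both strands, occurs in 0.387% of all entries, and the hexamer AGAACA, which can form an arm of it, in 16.1%. Neither was found in an entry of the members. These matches are descriptions of letters in a short window.

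In mice on plain water Dex raised *Mat1a*, which makes SAM, and *Cdo1*, which oxidizes cysteine, by 1.37-fold and 1.43-fold. In mice on zinc water it raised *Mat1a* 1.56-fold, *Cdo1* 1.54-fold and *Pemt*, which methylates phosphatidylethanolamine to phosphatidylcholine, 1.19-fold. No member was called lower. The question was which genes respond to the glucocorticoid receptor, with and without a week of zinc.

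In plain water 2 of the 10 were called higher, where 11.7% of the 14221 genes tested were called higher, and 0 lower, where 9.91% were. At an unadjusted p under 0.05 DESeq2 also gave 2 higher and 0 lower, and edgeR called 2 higher and 0 lower. In zinc water 3 were called higher, with 11.0% of 15657 genes called higher, and 0 lower, with 9.08% called lower. Here an unadjusted p under 0.05 was reached by 5 higher and 0 lower, and edgeR called 3 and 0. The median LFC of the members was 0.22 in plain water and 0.25 in zinc water, against -0.01 over all genes tested in each. None of these calls passed an absolute LFC above 0.8, a size that 9.68% of tested genes had with an adjusted p under 0.05 in plain water and likewise 9.68% in zinc water. The groups did not overlap, with Dex higher, for 2 members in plain water (19.8% of all genes tested) and for 4 in zinc water (19.5%), and for 0 members with Dex lower (19.2% and 18.6%). The Dex comparisons in plain and in zinc water have no mouse in common, but they are not independent. Both come from the fit of all 12 libraries, which shares its size factors and its estimate of each gene's spread. Leaving out water-PBS replicate 3, which is not in the zinc water comparison, took the members called there from 3 to 5.

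*Mat1a* (ENSMUSG00000037798, chromosome 14, 41105035 to 41124412, plus strand) encodes the catalytic subunit of hepatic methionine adenosyltransferase. Its counts were 31932, 37234 and 43356 in water-PBS and 40399, 44981 and 38605 in zinc-PBS. With Dex they were 55284, 48547 and 49936 in plain water and 71152, 56847 and 65429 in zinc water. All 6 Dex-injected mice lay above all 6 PBS-injected mice, and every zinc-Dex mouse lay above every water-Dex mouse. The LFC with Dex was 0.45 in plain water (SE 0.121, DESeq2 adjusted p 0.00177) and 0.64 in zinc water (SE 0.121, DESeq2 adjusted p 2.04e-06). With counts scaled to library totals the LFC in plain water was 0.25 and was not called (DESeq2 adjusted p 0.127).

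*Cdo1* (ENSMUSG00000033022, chromosome 18, 46713193 to 46728395, minus strand) encodes cysteine dioxygenase, the step that commits cysteine to taurine and sulfate. It was measured at 18938, 20812 and 21370.5 in water-PBS and at 22414, 22829.7 and 19599 in zinc-PBS. Dex-injected mice had 30103, 28084 and 29495 on plain water and 37671, 30761 and 31685 on zinc water, again with no overlap with any PBS-injected mouse. The LFC was 0.52 in plain water (SE 0.0963, DESeq2 adjusted p 1.11e-06) and 0.63 in zinc water (SE 0.0963, DESeq2 adjusted p 2.00e-09). It stayed called in all 21 alternative fits in both waters, as *Mat1a* did in zinc water.

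*Pemt* (ENSMUSG00000000301, chromosome 11, 59970614 to 60046489, minus strand), a large consumer of SAM in liver, varied little among mice. Its counts were 2362, 2614 and 2385 in water-PBS, 2488, 2508 and 2533 in zinc-PBS, 2607, 2735 and 2575 in water-Dex, then 3000.0, 2974 and 2990.2 in zinc-Dex. The 3 zinc-Dex mice were above every other mouse. Their SD was 0.447% of their mean, against 5.67% in water-PBS, and 3 mice estimate such a spread poorly. Dex gave an LFC of 0.25 in zinc water (SE 0.0623, DESeq2 adjusted p 0.000576) and of 0.10 in plain water, where the 95% interval ran from -0.02 to 0.23. Scaling to library totals took the LFC in zinc water to 0.02, with DESeq2 adjusted p 0.811, and turned that in plain water to -0.09.

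*Ahcy* (ENSMUSG00000027597, chromosome 2, 155059310 to 155074497, minus strand) encodes the hydrolase that clears S-adenosylhomocysteine. Counts were 4478, 5142 and 6173 in water-PBS, 6113, 6316 and 5962 in zinc-PBS, 6941, 6135 and 5726 in water-Dex, then 8594, 6401 and 7833 in zinc-Dex. All 3 zinc-Dex mice were above all 3 zinc-PBS mice, but the Dex comparison was not called in zinc water (LFC 0.31, 95% interval 0.05 to 0.57, DESeq2 adjusted p 0.0797) or in plain water (LFC 0.25, -0.01 to 0.51). Without water-PBS replicate 3, *Ahcy* was called in both, and without water-PBS replicate 1 or zinc-Dex replicate 2, or in a fit of only the libraries compared, in zinc water. Near-identical transcripts limit what can be read as *Ahcy*: *Gm4737* matches it at 99.7% over 2086 bases and had a mean of 497 counts, 7.82% of the *Ahcy* count, and the pseudogene *Gm9826* matches at 99.2% over 1299 bases. Reads shared by these copies had been left out by the authors. Adding the counts of the copies gave an LFC of 0.32 in zinc water and 0.25 in plain water, with the same calls.

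*Gnmt* (ENSMUSG00000002769, chromosome 17, 46725664 to 46729168, minus strand) encodes glycine N-methyltransferase, which disposes of excess SAM. Its level ranged from 9983 to 19852 within water-PBS alone, with 12603 in the remaining mouse. The other groups had 16642, 16362 and 12705 in zinc-PBS, 14572, 13340.2 and 14044 in water-Dex, then 23006, 13662 and 17609.8 in zinc-Dex. The Dex LFC was -0.02 in plain water (95% interval -0.44 to 0.41) and 0.25 in zinc water (-0.18 to 0.67), and was not called in either. In plain water its sign turned without water-PBS replicate 3 (0.31).

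The betaine-dependent enzymes return homocysteine to methionine. *Bhmt* (ENSMUSG00000074768, chromosome 13, 93616675 to 93637961, minus strand) was at 12886, 14766 and 21307 in water-PBS, 16806, 13432 and 16072 in zinc-PBS, 21059, 17822 and 18929 in water-Dex, then 32609.9, 22429 and 15935 in zinc-Dex. Within zinc-Dex the highest mouse had 2.05 times the count of the lowest. The Dex LFC of 0.62 in zinc water had an interval of 0.07 to 1.16 and was not called (DESeq2 adjusted p 0.104), and without zinc-Dex replicate 3 it was 0.83 and was called (DESeq2 adjusted p 0.000376). It was also called without water-PBS replicate 3 and after a filter that asked for 10 counts or more in 3 libraries or more. In plain water the LFC was 0.24 (-0.30 to 0.78). *Gm5096*, which matches *Bhmt* at 99.4% over 1869 bases, had 6.79% of its count, and *Bhmt-ps1* 0.259%. Adding them gave an LFC of 0.61 in zinc water.

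*Bhmt2* (ENSMUSG00000042118, chromosome 13, 93655720 to 93674302, minus strand) lies beside *Bhmt* and encodes a related methyltransferase that uses S-methylmethionine. Its transcript matches that of *Bhmt* at 73.5% over 1116 bases. Counts were 1974, 2119 and 2429 in water-PBS, 2416, 2438 and 2549 in zinc-PBS, 2665, 2257 and 2544 in water-Dex, then 3312, 2578 and 2488 in zinc-Dex. The Dex LFC was 0.20 in plain water (-0.04 to 0.43) and 0.18 in zinc water (-0.06 to 0.41), with neither called.

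The transsulfuration enzymes proper, *Cbs* and *Cth*, were not called with Dex. *Cbs* (ENSMUSG00000024039, chromosome 17, 31608894 to 31637238, minus strand), which condenses homocysteine with serine, had 5669, 5227 and 5407 counts in water-PBS, 4625, 5644 and 5273 in zinc-PBS, 6294, 5804 and 5605 in water-Dex, then 4995, 5177 and 4807 in zinc-Dex. Its Dex LFC was 0.12 in plain water (-0.05 to 0.29) and -0.05 in zinc water (-0.22 to 0.12). With library totals as the scale these became -0.08 and -0.28, and the second was called lower. *Cth* (ENSMUSG00000028179, chromosome 3, 157894248 to 157925077, minus strand) releases cysteine from cystathionine. It had 4034, 4705 and 6561 counts in water-PBS, 4969.9, 5906 and 4212 in zinc-PBS, 5406, 4219 and 3740.0 in water-Dex, then 6789.6, 4369 and 5013 in zinc-Dex. These 4 groups overlapped, and the Dex LFC was -0.19 (-0.59 to 0.20) in plain water and 0.10 (-0.30 to 0.50) in zinc water.

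*Csad* (ENSMUSG00000023044, chromosome 15, 102176999 to 102204724, minus strand) encodes the decarboxylase that follows cysteine dioxygenase on the way to taurine. It had 1439, 1414 and 4168 counts in water-PBS, 2794, 2202 and 1826 in zinc-PBS, 2768, 3212 and 2615 in water-Dex, then 1720.5, 2488 and 1175 in zinc-Dex. Water-PBS replicate 3 had 2.95 times the count of the lowest mouse of its group and the highest of all 12. The LFC with Dex in plain water was 0.29 (-0.57 to 1.16). Without that mouse it was 1.01 and was called (DESeq2 adjusted p 0.00903). In zinc water the LFC was -0.34 (-1.21 to 0.52). Exons of *Csad* overlap those of *Zfp740* on the opposite strand, which had a mean of 337 counts, and the strand setting of the counting was not stated.

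**Figure D2:**
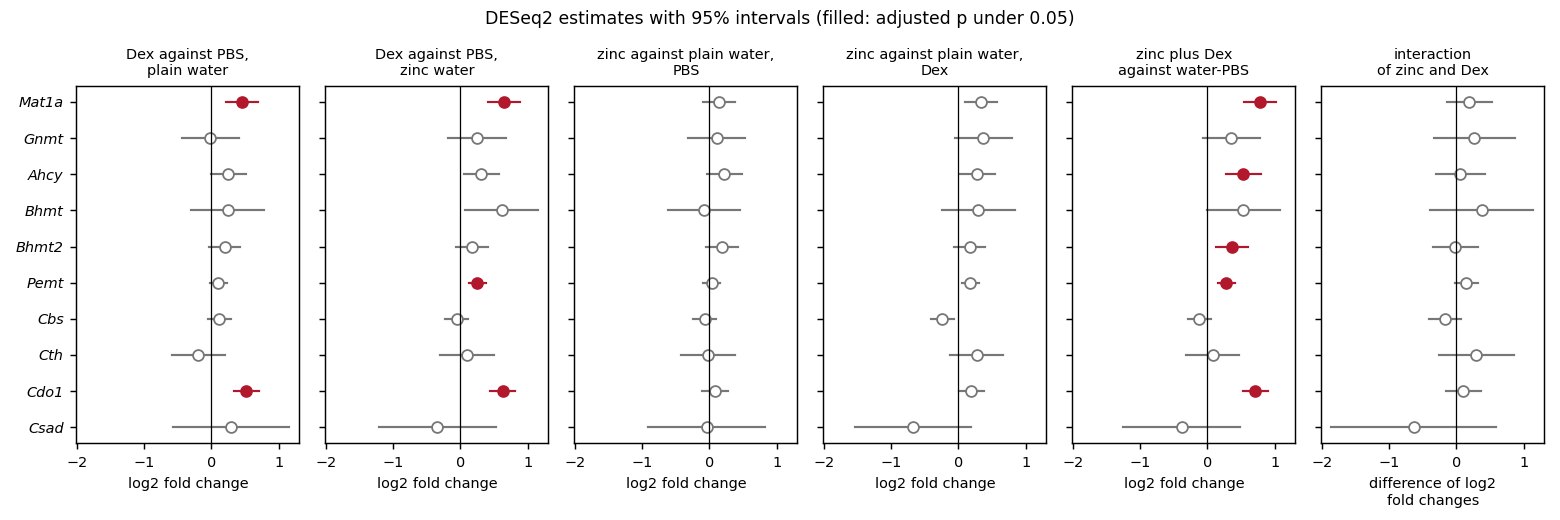
LFC (x axis, log2 scale) of each enzyme gene (rows) with its 95% Wald interval in 5 comparisons, and the interaction of zinc and Dex in the last panel. Filled points passed an adjusted p under 0.05. These are 2 and 3 members in the Dex panels, 5 for zinc plus Dex, and 0 in the zinc panels and in the interaction.

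Zinc in the drinking water without Dex left all 10 members uncalled, higher or lower. DESeq2 gave 0 members at an unadjusted p under 0.05 and edgeR called 0. Over all 12307 genes tested 0.211% were called higher and 0.130% lower. Each member's groups overlapped, where 5.86% of genes did not overlap with zinc higher and 6.01% with zinc lower. The median LFC of the members was 0.06, and the range was -0.08 (*Bhmt*) to 0.22 (*Ahcy*). The intervals were narrow for *Pemt* (-0.09 to 0.15) and *Cdo1* (-0.10 to 0.27) and wide for *Csad* (-0.91 to 0.82).

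With Dex on board, zinc also left all 10 uncalled, against 0.915% of 12786 genes called higher and 0.438% called lower, and edgeR called 0. At an unadjusted p under 0.05, 4 were higher (*Mat1a*, *Pemt*, *Ahcy* and *Cdo1*) and 1 lower (*Cbs*). The 3 zinc-Dex mice did not overlap with the 3 water-Dex mice for 5 members. *Mat1a* (LFC 0.33, 95% interval 0.09 to 0.57), *Pemt* (0.18, 0.06 to 0.30) and *Cdo1* (0.19, 0.0027 to 0.38) had zinc-Dex higher, as had 10.2% of genes, and *Cbs* (-0.24, -0.41 to -0.07) and *Csad* (-0.68, -1.54 to 0.19) had it lower, as had 9.80%. Their DESeq2 adjusted p values lay between 0.157 and 0.673. *Mat1a* was called only without zinc-Dex replicate 2 (DESeq2 adjusted p 0.0497).

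Mice that received both treatments, set against the untreated controls, had 5 members called higher and 0 lower, by DESeq2 and by edgeR, where 8.13% of 21401 genes were called higher and 6.70% lower. At an unadjusted p under 0.05 there were also 5 and 0. *Mat1a* rose 1.72-fold (LFC 0.78, SE 0.121, DESeq2 adjusted p 3.95e-09) and *Cdo1* 1.64-fold (LFC 0.71, SE 0.0963, DESeq2 adjusted p 6.64e-12). *Ahcy* rose 1.45-fold (LFC 0.53, SE 0.132, DESeq2 adjusted p 0.00076). *Bhmt2* and *Pemt* rose 1.28-fold (DESeq2 adjusted p 0.0222) and 1.22-fold (DESeq2 adjusted p 0.000103). None passed an absolute LFC above 0.8, as 7.24% of genes did. These 5 were also the members whose groups did not overlap with zinc-Dex higher (14.9% of genes), and *Cbs* did not overlap with zinc-Dex lower (14.6% of genes) but was not called (LFC -0.12, 95% interval -0.29 to 0.05). The *Bhmt2* call was lost without water-PBS replicate 1 or 2 or zinc-Dex replicate 1 and in a fit of the 6 libraries compared. Without water-PBS replicate 3, *Gnmt* (LFC 0.68) and *Bhmt* (0.78) were called as well. This comparison, the Dex comparison in plain water and the zinc comparison with PBS use the same 3 water-PBS mice.

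Whether zinc altered the Dex response was tested as an interaction, the Dex LFC in zinc water minus that in plain water. DESeq2 called 0 members, with 0 at an unadjusted p under 0.05, and edgeR called 0. Of 26185 genes 0.00764% were called higher and 0.0153% lower. The difference was 0.15 for *Pemt* (95% interval -0.03 to 0.32), 0.19 for *Mat1a* (-0.14 to 0.53), 0.11 for *Cdo1* (-0.16 to 0.37) and -0.63 for *Csad* (-1.86 to 0.59). *Pemt* was called with Dex in zinc water and not in plain water, but the difference between waters was itself not called.

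**Figure D3:**
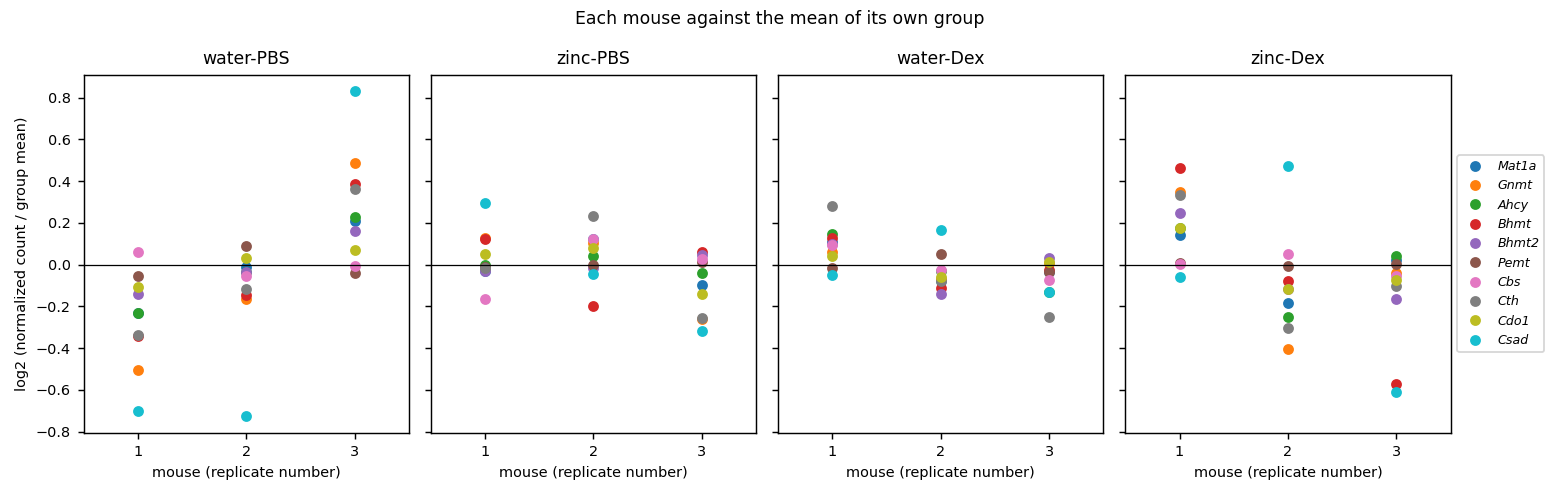
Each mouse (x axis, replicate number) in each group (panels), as log2 of its normalized count over the mean of its own group (y axis), 1 color per enzyme gene. In water-PBS replicate 3, water-Dex replicate 1 and zinc-Dex replicate 1, 8 of the 10 genes are the highest of the group, and *Csad* spreads most in water-PBS.

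Within groups the enzymes varied together in some mice. Water-PBS replicate 3 was the highest of its group for 8 of 10 members, where 35.5% of 9574 genes were highest in that mouse. Water-Dex replicate 1 and zinc-Dex replicate 1 were also the highest for 8 members each, against 31.8% and 36.5% of genes. *Cbs* and *Pemt* did not take part in water-PBS replicate 3, where *Cbs* had 5407 and *Pemt* 2385 counts, both between the other mice of the group. The labels give no order to the replicate numbers, and the cause was not tested.

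The scale of the counts bears on the Dex results. With library totals in place of size factors, a choice made after seeing the data, the median of all genes moved by -0.20 in LFC in plain water, by -0.23 in zinc water and by -0.24 for both treatments. The share of calls that were higher moved from 54.0% to 23.5%, from 54.8% to 20.4% and from 54.8% to 19.6% in the same order. On that scale *Cdo1* stayed higher in all 3 (LFC 0.32, 0.40 and 0.47) and *Mat1a* in zinc water and with both treatments (0.41 and 0.54). *Pemt*, *Ahcy* and *Bhmt2* were not called on it, and *Cbs* was called lower with both treatments (-0.36, DESeq2 adjusted p 0.000439).

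**Figure D4:**
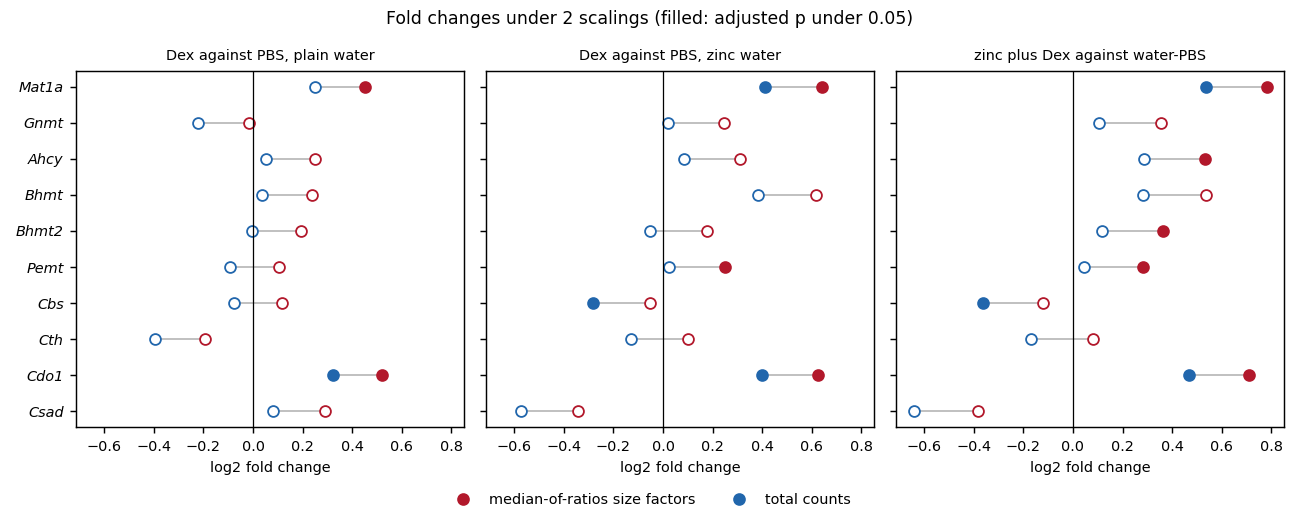
LFC (x axis, log2 scale) of each enzyme gene (rows) with DESeq2 size factors (red) and with library totals (blue) in the Dex comparisons and for both treatments, filled where the adjusted p is under 0.05. Every gene lies further left on library totals, and *Cdo1* is filled on both scales in all 3 panels.

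Of 55 genes in 4 neighbouring lists, 13 were called with Dex in plain water and 10 in zinc water, and the largest change in both was in polyamine synthesis. Of the 54 tested in each, 9.26% were called higher and 14.8% lower in plain water, against 11.7% and 9.91% of all genes, and 11.1% and 7.41% in zinc water, against 11.0% and 9.08%. Among 11 genes of methionine salvage and polyamines, 3 were called higher and 2 lower in plain water, and 3 higher and 1 lower in zinc water. *Amd1*, the decarboxylase that draws SAM into polyamines, rose from 148 ± 18.7 to 642 ± 116.7 in plain water (LFC 2.12, SE 0.161, DESeq2 adjusted p 1.58e-37) and from 147 ± 10.7 to 608 ± 74.6 in zinc water (LFC 2.05). *Odc1*, which makes putrescine, rose with LFC 0.81 and 0.74, and *Azin1*, which protects the product of *Odc1*, with 0.48 and 0.45. On library totals both *Azin1* calls were lost, at LFC 0.28 and 0.22. *Adi1* (-0.27), of methionine salvage, was called lower in plain water, as was the polyamine acetyltransferase gene *Sat1* (-0.27), which is named after its values were seen, and *Mtap* (-0.39), also of salvage, was called lower in zinc water. The *Adi1* call held in 7 of 21 alternative fits.

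Among 17 tested of 18 genes of glutathione, sulfide and taurine, 1 was called higher and 1 lower with Dex in each water. *Got1*, an aspartate and cysteine sulfinate aminotransferase, rose from 2495 ± 371 to 6021 ± 488 (LFC 1.27) and from 2758 ± 375 to 8398 ± 1203 (LFC 1.61), and *Slc6a6*, the taurine transporter gene, fell by 0.27 and 0.37 on the log2 scale. With zinc, the other 3 lists had 0 genes called in either comparison. *Gclc*, the catalytic subunit of glutathione synthesis, was the gene of these lists called in both comparisons. It fell from 2912 ± 324 to 2056 ± 232 under PBS (LFC -0.50, SE 0.107, DESeq2 adjusted p 0.00283) and from 2857 ± 51.4 to 1890.1 ± 134 under Dex (LFC -0.60, SE 0.108, DESeq2 adjusted p 3.09e-05). The first of these was lost by edgeR and without water-PBS replicate 1 or 2 or zinc-PBS replicate 1. *Got1* was called higher with zinc under Dex (LFC 0.48, DESeq2 adjusted p 0.0452), a call that held in 9 of 21 alternative fits. Over all 55 genes, an unadjusted p under 0.05 was reached by 5 with zinc under PBS and by 12 under Dex, and edgeR called 0 and 1.

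Of 14 methionine cycle and folate genes, 1 was called higher and 2 lower with Dex in plain water and 1 and 1 in zinc water. *Mat2b*, a regulatory subunit of the extrahepatic adenosyltransferase, fell by 0.32 and 0.48 on the log2 scale, and *Shmt1*, which moves serine carbon to folate, by 0.38 in plain water. *Mthfd1l*, named after its values were seen because its mean was under 50, was higher in both waters (LFC 1.85 and 1.49) at means of 5.89 to 26.8 counts.

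Among 12 genes of betaine supply and other methyl acceptors, 0 were called higher and 3 lower with Dex in plain water, and 1 and 1 in zinc water. *Gatm*, the first step of creatine synthesis, fell by 0.66 and 0.61 on the log2 scale and by 0.95 with both treatments. *Inmt* (-0.34), a thioether methyltransferase gene, and *Chdh* (-0.24), which oxidizes choline towards betaine, were called lower in plain water. *Dmgdh*, which breaks down the product of *Bhmt*, was called higher in zinc water (LFC 0.37) and with both treatments (0.32), and *As3mt* with both (0.40). On library totals these 3 calls were lost, at LFC 0.14, 0.0764 and 0.15, and with both treatments *Dmgdh* was also lost without water-PBS replicate 1 or 3 or zinc-Dex replicate 1, and *As3mt* without water-PBS replicate 1 or 2 or zinc-Dex replicate 1. Exons of *Shmt1* and *Chdh* overlap genes on the opposite strand. With both treatments the 4 lists had 1 and 1, 2 and 1, 3 and 1, and 1 and 2 genes called higher and lower in the order folate, betaine, salvage and glutathione, of 14, 12, 11 and 18 tested.

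**Figure D5:**
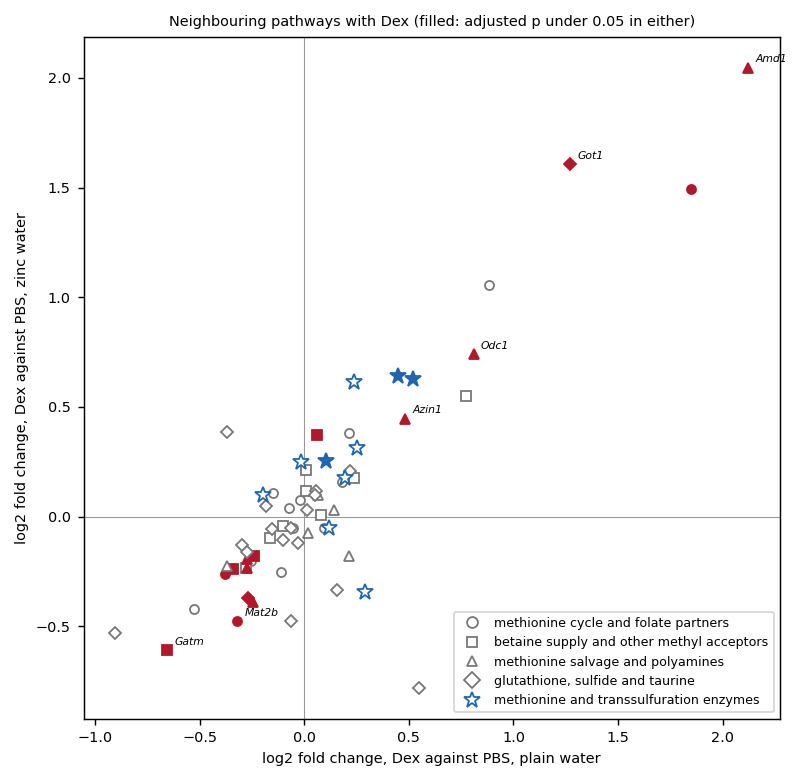
LFC with Dex in plain water (x axis) against that in zinc water (y axis), both on a log2 scale, for the enzyme genes (stars) and for the genes of the 4 neighbouring lists (other symbols), filled where the adjusted p is under 0.05 in either. *Amd1*, *Got1* and *Mthfd1l*, the last without a label, lie farthest to the upper right. The filled stars are *Mat1a*, *Cdo1* and *Pemt*.

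The gene whose pattern over the 12 libraries was most like each member's was found by Pearson's r of log2(normalized count + 1) among 9564 genes with a mean of at least 50. The 12 libraries include the Dex difference, so r is a description. For *Cdo1* it was *Sfxn1* (r 0.990) and for *Mat1a* *Hgd* (0.979), of tyrosine breakdown. *Gnmt* was most like *Aldh1l1* (0.962), a folate enzyme, *Bhmt2* like *As3mt* (0.940), *Pemt* like *Aspscr1* (0.956) and *Cth* like *Abat* (0.911). *Ahcy* and *Bhmt* were most like their near copies *Gm4737* (0.974) and *Gm5096* (0.971), which can share misplaced reads. *Cbs* and *Csad* were least like other members, with at most 0.328 to any, while *Mat1a* and *Cdo1* reached 0.958 with each other.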

How the data were processed

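For 12 mice, liver RNA had gone into stranded TruSeq libraries read from a single end. The authors trimmed the reads with Trimmomatic, mapped them to mm10 with hisat 2.0.4 and deposited raw counts per Ensembl gene from featureCounts, without multimapping reads. The annotation release and strand setting are not given in the sources used here. Symbols, coordinates (GRCm38) and exon lengths came from GENCODE M21. Totals were 9091152 to 12303527 per library.

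Groups followed the labels. DESeq2 1.42.0 (R 4.3.3) was fitted to the 12 libraries, each group having its own coefficient, as the study's methods name this tool with an FDR of 5%, and intervals are 95% Wald intervals. The fit was tested on simulated data. Near copies were found with BLAST, at 95% identity or more over at least 500 bases. Alternatives were edgeR 4.0.16 (quasi-likelihood), TMM factors, filters, a replicate term, each library left out, and, added after seeing the data, library totals and summed near copies. The labels do not say whether replicate numbers pair the mice, and the main fit treated them as unpaired. Correlations of same-numbered mice were -0.20 to 0.19, with 1 of 15 over 0.1, which cannot exclude a pairing. No library was a copy of another of its own group, and libraries of different groups were not compared in this way.

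The members and lists were chosen with earlier results of these data known. All members are named. Of each neighbouring list, at most 4 called genes are named per comparison, if their mean reached 50. A gene that this rule would name is not reported here.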

Additional observations from a re-analysis of the deposited data

How the results depend on the processing

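Each comparison was refitted in 21 ways (20 for the interaction), and the count of members called moved in these. Library totals took it from 2 to 1 with Dex in plain water and from 5 to 3 with both treatments, where *Cbs*, called lower, was 1 of the 3. With Dex in zinc water the count stayed at 3 on library totals, but *Cbs*, called lower, took the place of *Pemt*. In zinc water the filter on low counts took it from 3 to 4 (adding *Bhmt*), and a fit of only the libraries compared from 3 to 4 (adding *Ahcy*) and, with both treatments, from 5 to 4 (without *Bhmt2*). A fold threshold of 0.8 took the Dex counts and that with both treatments to 0. Leaving out 1 library gave 2 to 4 with Dex in plain water (4 without water-PBS replicate 3, which added *Ahcy* and *Csad*), 3 to 5 in zinc water (5 without the same mouse, which added *Ahcy* and *Bhmt*), 0 to 1 for zinc under Dex (*Mat1a*, without zinc-Dex replicate 2) and 4 to 7 with both treatments. The fit with a replicate block gave 2, 3, 0, 0, 5 and 0 members, so the block changed no call of a member. Over all genes, calls for zinc went from 42 to 11 with PBS and from 173 to 47 under Dex by edgeR, and with both treatments from 3174 to 5095 on library totals. Leaving out 1 library moved the zinc calls between 23 and 89, and between 76 and 274. The 6 interaction calls became 12 on library totals, 3 by edgeR and 4 to 31 without 1 library. Above the fold threshold, 1376, 1516, 17, 60, 1550 and 5 genes were left of 3067, 3145, 42, 173, 3174 and 6, in the order Dex in plain and zinc water, zinc under PBS and Dex, both treatments and the interaction.

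These estimates turned sign, and none was called. On library totals *Bhmt2* became -0.0028, *Cbs* -0.0775 and *Pemt* -0.0923 with Dex in plain water, *Bhmt2* -0.0514 and *Cth* -0.13 in zinc water, and *Cth* -0.17 with both treatments. Leaving out 1 library gave *Gnmt* -0.21 to 0.31 and *Cth* -0.36 to 0.0287 with Dex in plain water, and *Cbs* -0.13 to 0.0125 and *Cth* -0.10 to 0.23 in zinc water. For zinc under PBS it gave *Gnmt* -0.0909 to 0.43, *Bhmt* -0.22 to 0.16, *Cbs* -0.13 to 0.0065, *Cth* -0.16 to 0.20 and *Csad* -0.30 to 0.67, and for zinc under Dex *Bhmt* -0.0063 to 0.52. With both treatments *Cth* was at -0.12 to 0.30 and *Csad* at -0.69 to 0.33, and in the interaction *Gnmt* at -0.0608 to 0.46, *Bhmt2* at -0.16 to 0.0595 and *Ahcy* at -0.07 to 0.17. The cause was not tested. Of the neighbouring genes named, the Dex calls in plain water of *Adi1* held in 7 of 21 fits, of *Shmt1* in 9 and of *Mat2b*, *Inmt*, *Chdh* and *Slc6a6* in 14 each. That of *Mtap* in zinc water held in 14, that of *Got1* with zinc under Dex in 9, those of *Dmgdh* and *As3mt* with both treatments in 16 and 17, and that of *Gclc* with zinc under PBS in 17.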
